A study of Mus musculus with 4 samples.

Results

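CD4 conventional T cells, meant as the CD4 T cells that are not regulatory, were compared between 2 libraries of MC38 tumours. One came from mice given anti-PD-1 and the other from mice given vehicle. A cell was taken as a member when its deposited Cd4 value was above 0, above Cd8a and above Cd8b1, and its Foxp3 value was 0. The rule gave 55 of 155 vehicle cells and 981 of 12562 anti-PD-1 cells, or 1036 of the 12717 cells in both libraries and of 13213 in the series. MC38 is a mouse colon carcinoma line, implanted orthotopically in C57BL/6 mice. The series tested Atractylenolide I (ATT-I) with checkpoint blockade. Its other arms, ATT-I at 50 mg/kg daily and ATT-I with anti-PD-1, are used here only for side-by-side levels. Anti-PD-1 was given 3 times a week for 5 doses, and tumours were taken 2 weeks after treatment began. The comparison arm is a vehicle control by the treatment protocol and "No treatment" by its sample entry. Each arm pooled 5 tumours into 1 droplet library, so there is no replicate, no test was made, and every difference is between 2 libraries rather than 2 treatments.

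CD4 helper T cells recognise peptides on MHC class II through the T cell receptor and its coreceptor CD4, and act mainly through cytokines and surface ligands. Under the transcription factor T-bet they take a Th1 form that makes interferon gamma, and some tumour CD4 cells also carry granzymes and perforin, the killing proteins best known from CD8 cells. PD-1, encoded by Pdcd1, is an inhibitory receptor raised by T cell receptor signalling, and antibodies to it block its contact with PD-L1 and PD-L2.

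The members carried T cell receptor genes in both libraries. Cd3g was found in 100% of vehicle and 99.6% of anti-PD-1 members, Trac in 100% and 97.3%, and Cd3e in 89.1% and 92.3%. The rule rests on few molecules: the median member held 3 Cd4 UMIs (unique molecule counts) in vehicle and 2 in anti-PD-1, and 18.2% and 31.4% held 1. A UMI of Cd8a or Cd8b1 was present in 16.4% of vehicle and 38.5% of anti-PD-1 members. Just outside the rule, 304 anti-PD-1 cells tied with a CD8 gene, 448 had more of it, and 172 were left out for 1 Foxp3 UMI and 253 for more. The same numbers in vehicle were 0, 3, 5 and 14. As shares of their libraries the members made up 35.5% of vehicle cells (exact binomial 95% interval 28.0 to 43.6) and 7.81% of anti-PD-1 cells (7.35 to 8.29). CD8 cells, defined by Cd8a or Cd8b1 above Cd4 with Foxp3 at 0, made up 32.9% and 69.9%. No source used here says how cells were enriched before loading. These shares also depend on how many other cells each library holds.

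RNA of other cell types differed between the 2 sets of members. The summed level of the CD8 genes was 0.228 UMIs per 10000 in vehicle and 0.865 in anti-PD-1. NK and Ly49 receptor markers were at 0.517 and 1.83 (5 of 10 genes at 0 in vehicle, 1 in anti-PD-1, and Ncr1 at 0 and 0.0306). The 4 measured gamma-delta genes were at 0.0474 and 0.305, B cell genes at 0.194 and 0.774, monocyte or macrophage genes at 1.62 and 3.42, dendritic cell genes at 0.918 and 1.84, fibroblast or endothelial genes at 0.519 and 0.743, and haemoglobin genes at 0.145 and 1.17. Epithelial genes were at 0.262 and 0.148. Over 20 UMIs per 10000 of myeloid markers were held by 26 anti-PD-1 members and 0 vehicle members, and no doublet was removed. Regulatory T cell markers other than Foxp3 averaged 6.76 and 10.3 in members, against 25.6 and 23.3 in Foxp3-positive CD4 cells of the same libraries. Ikzf2 among them was found in 58.2% of vehicle and 49.3% of anti-PD-1 members, so a Foxp3 value of 0 may not leave out every regulatory cell. The part of these other cell types in the results below was not tested, except where values without such cells are given.

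Mki67, the antigen of dividing cells, was found in a smaller share of members in the anti-PD-1 library. It was found in 26 of 55 vehicle members (47.3%, exact 95% interval 33.7 to 61.2) and 259 of 981 anti-PD-1 members (26.4%, 23.7 to 29.3). The mean Mki67 level was 2.80 UMIs per 10000 in vehicle and 1.02 in anti-PD-1. Vehicle members were deeper, with a median of 7673 UMIs (2031 to 52085) against 5748 (1623 to 41099). Depth and Mki67 went together within each library. Mki67 was found in 88.2% of vehicle and 64.0% of anti-PD-1 members of at least 10000 UMIs (17 and 161 cells). From 5000 to under 10000 UMIs the shares were 26.7% and 24.1% (30 and 431 cells), with overlapping intervals, and under 5000 UMIs they were 37.5% and 13.4% (8 and 389 cells). With each cell thinned to 3000 UMIs, which leaves out 1 vehicle and 53 anti-PD-1 members, Mki67 was found in 29.6% (18.0 to 43.6) and 16.6% (14.3 to 19.1). CD8 cells thinned in the same way stood at 78.0% in vehicle and 21.1% in anti-PD-1. The shares thus stood closest in the middle depth class. Results below are also given for members with Mki67 at 0 (29 and 722 cells) and above 0 (26 and 259 cells).

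**Figure D1:**
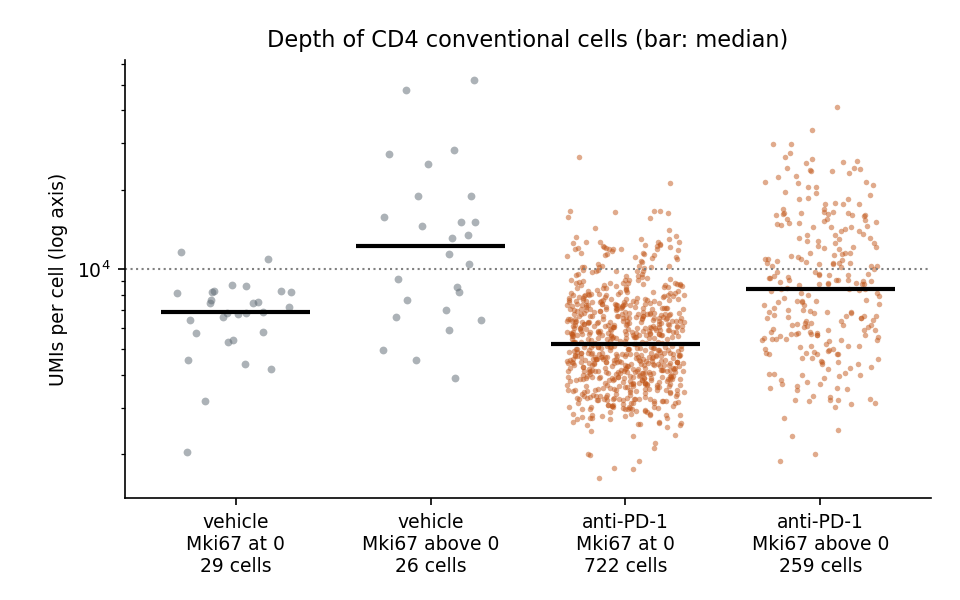
UMIs per cell (log axis) of every CD4 conventional cell, by library and by Mki67; each point is 1 cell, the bar is the median and the dotted line marks 10000 UMIs. The medians were 6912 and 12299 in vehicle (Mki67 at 0 and above 0) and 5225 and 8404 in anti-PD-1.

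A gene's level here is its mean over cells of UMIs per 10000, and a difference is the log2 ratio of the anti-PD-1 over the vehicle level. Intervals are 95% counting intervals and cover counting error only, not differences between cells, mice or library preparations. Of 7573 genes found in at least 10% of the members of either library, 262 (3.46%) were at least 2-fold higher in anti-PD-1 and 1453 (19.2%) at least 2-fold lower. The median gene had a log2 ratio of -0.30, and relative to it the counts were 584 (7.71%) higher and 829 (10.9%) lower. The filter was passed unevenly: 826 of the 1453 lower genes passed the 10% filter only through vehicle, and 105 of the 262 higher genes only through anti-PD-1. Among the 5692 genes that passed in both, 156 (2.74%) were higher and 627 (11%) lower. Of the genes named below, Prf1, Gzmf, Ccl3, Gzma, Gzmk, Klrg1, Il12rb1, Areg, Socs3, Hk2 and Bnip3 passed only through anti-PD-1, as did Nudt19, Ramp3, Gm9493, Nfil3 and Lgals7 among genes outside the lists. Egr2, Irf4, Tnfsf14, Bach2, Bcl6, Tigit, Oasl2, Oas1a, Plk1 and Hist1h2ai passed only through vehicle, as did every gene named among the lowest outside the lists except Tsix. With Mki67 at 0, 498 of 7202 genes (6.91%) were 2-fold higher and 1744 (24.2%) lower. With Mki67 above 0 the counts were 617 of 8350 (7.39%) and 1735 (20.8%). Counts within the lists below are to be read beside these shares, 3.46% higher and 19.2% lower over all members. Counts over genes that passed in both libraries are to be read beside 2.74% higher and 11% lower.

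**Figure D2:**
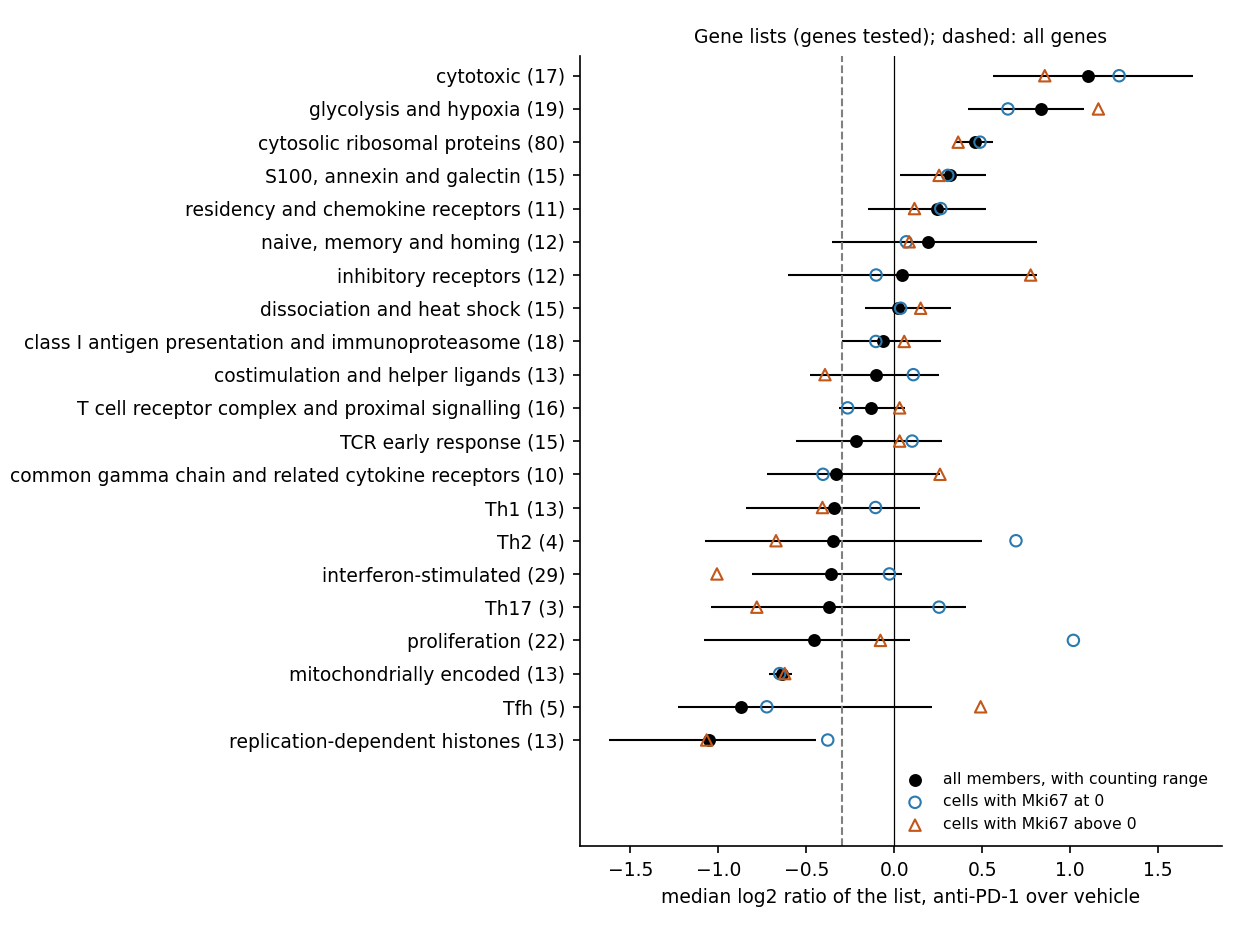
Median log2 ratio (anti-PD-1 over vehicle) of each gene list, with the number of members that passed the filter in brackets; filled points are all cells with a line from the median of the genes' lower to that of their upper 95% counting bounds, and open symbols split cells by Mki67. The dashed line is the median of all genes, -0.30; the cytotoxic list lies highest at 1.10 and the histone list lowest at -1.05.

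Genes of cytotoxic granules and of the chemokines released with them were higher in anti-PD-1 members. Of 22 measured, 17 passed the filter, of which 9 were at least 2-fold higher and 1 lower, beside 3.46% and 19.2% of all genes. The median log2 ratio was 1.10 beside -0.30 for all genes. Of the 17, 6 (Klrg1, Prf1, Gzmf, Ccl3, Gzma and Gzmk) passed only through the anti-PD-1 library. Over the other 11, with 4 higher and 1 lower, the median was 0.56. Of all genes that passed in both libraries, 2.74% were higher and 11% lower. Relative to the median gene the 17 gave 10 higher and 1 lower. The median was 1.28 with Mki67 at 0 and 0.86 with Mki67 above 0.

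Ccl4, a chemokine that draws T cells and monocytes (chromosome 11, 83662584 to 83664683 in GRCm38), was at 0.230 UMIs per 10000 in vehicle and 5.94 in anti-PD-1. The vehicle level rests on 13 UMIs in 7 cells, and 433 anti-PD-1 members held the gene. Its log2 ratio was 4.69 (3.89 to 5.63), or 25.8-fold. Ccl3, its neighbour in sequence and function, went from 0.308 to 3.34, with 80% of its vehicle UMIs in 1 cell. Gzmb, the protease granzyme B, was at 0.384 in vehicle (27 UMIs in 7 cells) and at 4.08 in anti-PD-1 (624 cells), a log2 ratio of 3.41 (2.81 to 4.08). After thinning it was found in 9.26% of vehicle and 43.2% of anti-PD-1 members, and in 50.0% and 72.2% of CD8 cells at the same depth. Its gap was wider in members with Mki67 at 0 (0.130 against 4.27, on 2 vehicle UMIs) than with Mki67 above 0 (0.668 against 3.57).

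Several other killing genes were nearly absent from the vehicle members. Perforin, Prf1, which forms the pore that lets granzymes in, had 1 vehicle UMI against 302 in anti-PD-1, a log2 ratio of 6.12 (3.63 to 11.43). Gzmf had 2 vehicle UMIs against 848, with a log2 ratio of 5.19 (3.24 to 8.49), and Gzma had 1 against 545, with 4.16 (1.67 to 9.47). Their ratios have wide intervals because so few vehicle molecules were counted. A ratio on 1 vehicle UMI also depends on the depth of the cell that held it. Over 20 settings Prf1 ran from 0.34 to 6.42, Gzmf from 1.57 to 7.04 and Gzma from 1.39 to 5.6, in part below these intervals. Nkg7, a granule membrane protein, was well counted in both, at 4.17 and 9.72, a log2 ratio of 1.22 (1.02 to 1.43). Xcl1, a chemokine for cross-presenting dendritic cells, was at 0.777 and 1.67, with 57.4% of its vehicle UMIs in 1 cell. Ccl5 was the most abundant member of the list and differed little, at 16.3 and 15 (-0.12, -0.23 to 0.00). Its log2 ratio was -0.63 with Mki67 at 0 and 0.86 with Mki67 above 0.

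Gzmc went the other way. It was at 7.17 in vehicle and 2.01 in anti-PD-1, a log2 ratio of -1.83 (-2.02 to -1.64), with 35.6% of the vehicle UMIs in 1 cell and the gene in 18 of 55 and 216 of 981 members. In members with Foxp3, Il2ra and Ikzf2 all at 0 (18 and 400 cells) its log2 ratio was 0.67.

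Members were set beside the CD8 cells of their own library, from which the rule separates them by Cd8a and Cd8b1. Anti-PD-1 members held 13.3% of the Prf1 level of CD8 cells, 28.9% of Gzmb, 24.9% of Ccl5, 50.6% of Ccl4 and 88.2% of Ccl3. Klrg1 (298%), Gzmc (186%) and Serpinb6b (128%) of the same list were above the CD8 level, and the rest of the list was below it. Of the 17 genes, 10 were higher and 7 lower in the 603 anti-PD-1 members without a CD8 UMI than in the 378 with one. By the rule, all 308 members with 1 Cd4 UMI fall in the group without a CD8 UMI. Gzmb was at 4.39 without and 3.60 with one and Ccl4 at 6.04 and 5.79, while Ccl3 was at 2.97 and 3.92, Nkg7 at 9.21 and 10.5 and Klrd1 at 3.23 and 4.68. Members with 1 Cd4 UMI were also set beside the 388 with 3 or more. Gzmb was at 5.67 and 2.72, Ccl4 at 7.87 and 4.11, Ccl5 at 20.2 and 9.75 and Prf1 at 0.639 and 0.352. Ccl3 (3.32 and 3.85), Nkg7 (8.90 and 11.3) and Klrd1 (2.45 and 5.21) went the other way. Whether CD8 cells taken as members add to these levels was not tested. Without any CD8 UMI the cytotoxic median was 1.06, with Prf1 at 6.07 and Ccl4 at 4.72. Requiring also 2 Cd4 UMIs and Cd3e gave 0.93 (33 and 276 cells). Leaving out members with a UMI of an NK, Ly49 or gamma-delta marker (40 and 476 cells left) gave a median of 0.66, with Prf1 at 2.26 and Ccl4 at 3.73.

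**Figure D3:**
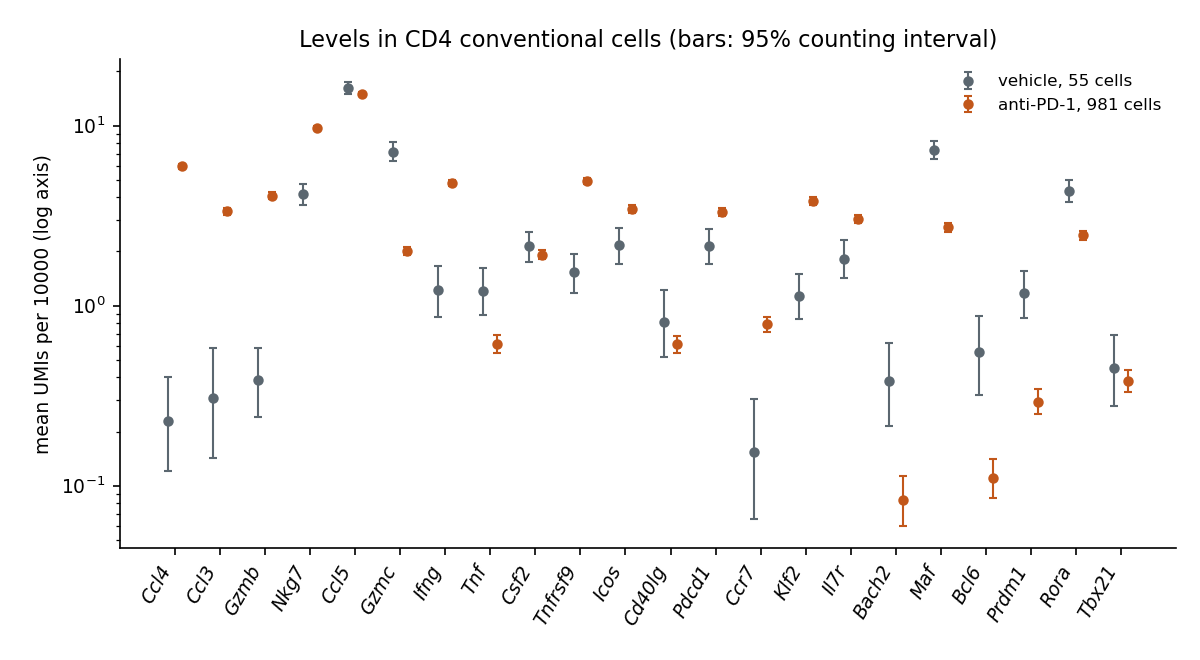
Mean UMIs per 10000 (log axis) of selected genes in CD4 conventional cells of the vehicle (55 cells) and anti-PD-1 (981 cells) libraries; bars are 95% counting intervals. Ccl4, Gzmb, Ifng, Tnfrsf9 and Klf2 lie higher in anti-PD-1, and Maf, Bcl6, Prdm1, Bach2 and Gzmc lie lower.

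Interferon gamma was higher in anti-PD-1 members while T-bet was not. Ifng (chromosome 10, 118441046 to 118445892) was at 1.22 UMIs per 10000 in vehicle and 4.81 in anti-PD-1, a log2 ratio of 1.98 (1.53 to 2.48), with the gene in 21 of 55 and 457 of 981 members. The ratio was 1.86 with Mki67 at 0 and 2.09 with Mki67 above 0. After thinning, the shares of members with Ifng were 24.1% and 31.7%, closer than the mean levels, and 28% and 39.6% in CD8 cells. In the anti-PD-1 library Ifng was at 4.81 in members and 3.04 in CD8 cells.

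The rest of the Th1 list did not follow. Of its 15 genes 13 passed the filter, 2 higher (Ifng and Il12rb1) and 0 lower, beside 3.46% and 19.2% over all genes. The median log2 ratio was -0.34. Over the 11 that passed in both libraries 1 was higher and 0 lower, and the median was -0.43. Tbx21, which encodes T-bet, was at 0.448 and 0.383 (-0.23, -0.88 to 0.51). Il12rb1, a chain of the IL-12 receptor, rested on 4 vehicle UMIs (1.86, 0.38 to 3.92). Stat4, which carries the IL-12 signal, was at 2.13 and 1.42, and Tnf at 1.21 and 0.615 (-0.98, -1.43 to -0.50). Il2, the T cell growth factor, was found in 3 vehicle and 44 anti-PD-1 members, with a log2 ratio of 1.40 (-0.07 to 3.46). Csf2, encoding GM-CSF, was at 2.13 and 1.92, with 45% of its vehicle UMIs in 1 cell, and with log2 ratios of 1.26 and -1.49 at Mki67 0 and above 0.

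Among receptors that costimulate T cells, 4-1BB stood out. Tnfrsf9, which encodes it (chromosome 4, 150914562 to 150946102), was at 1.53 in vehicle and 4.90 in anti-PD-1, a log2 ratio of 1.68 (1.33 to 2.05), and 31.5% and 56.1% of members held it after thinning. Its ratio was 1.44 with Mki67 at 0, 2.04 with Mki67 above 0 and 2.45 in members of at least 10000 UMIs. All 13 genes of the costimulation and helper ligand list passed the filter, with 1 higher, 2 lower and a median of -0.10. Over all genes 3.46% were higher and 19.2% lower. Of the 12 that passed in both libraries 1 was higher and 1 lower. Cd226, a receptor for nectin-family ligands, was lower, at 2.58 and 1.06 (-1.28, -1.59 to -0.96). Tnfsf14 was lower on 11 vehicle UMIs (-1.17, -2.37 to 0.32). Icos was at 2.17 and 3.46 (0.67, 0.34 to 1.03) and Tnfrsf4, or OX40, at 6.42 and 9.09 (0.50). Cd40lg, the ligand by which helper cells license dendritic and B cells, was at 0.814 and 0.610 (-0.42, -1.02 to 0.26).

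No inhibitory receptor that passed the filter differed 2-fold. Of 13 measured, 12 passed the filter, 0 were higher and 0 lower by 2-fold, and the median was 0.05. Pdcd1, the target of the antibody, was at 2.15 in vehicle and 3.31 in anti-PD-1 (0.62, 0.30 to 0.96), and was found in 40.7% and 48.9% of thinned members. Its level in CD8 cells was 1.33 and 2.98. Lag3 was at 1.32 and 2.26 (0.78, 0.42 to 1.16) and Ctla4 at 2.60 and 3.30 (0.34, 0.04 to 0.66). Both had larger ratios in members with Mki67 above 0, 1.58 and 0.85, than with Mki67 at 0, 0.31 and 0.02. Cd200r1 was at 1.67 and 0.965 (-0.80) and Tigit at 0.185 and 0.113 on 9 vehicle UMIs.

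Early genes of T cell receptor signalling were mixed. Of 17 measured, 15 passed, 1 was higher and 4 lower, beside 3.46% and 19.2% over all genes, and the median was -0.22. Over the 13 that passed in both libraries, 1 was higher and 2 lower and the median turned to 0.10. Dusp2, a phosphatase that limits MAP kinase signalling, was the higher one, at 1.23 and 3.31 (1.43, 1.02 to 1.88). Fosb was lower, at 2.78 and 1.08 (-1.37, -1.66 to -1.06), and Egr2, a factor tied to restraint of T cell activation, was at 0.358 and 0.150 (-1.26, -1.98 to -0.47). Nr4a3 was at 0.680 and 0.322 (-1.08) but at 0.29 on the log2 scale with Mki67 at 0. Irf4 was at 0.249 and 0.112 on 10 vehicle UMIs (-1.15, -2.20 to 0.10), and turned to 0.07 with Mki67 above 0. Junb, the list's most abundant gene, was at 13.2 and 19.3 (0.55). Of the 16 genes of the receptor complex and its proximal kinases, 0 differed 2-fold and the median was -0.13, with Cd3g at 16.6 and 21.1.

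Genes of resting and recirculating T cells divided. Of 14 measured, 12 passed, 3 were higher and 1 lower, beside 3.46% and 19.2% over all genes, and the median was 0.19. Over the 11 that passed in both libraries 3 were higher and 0 lower, and the median was 0.34. Klf2, a factor that keeps homing receptors on in quiescent T cells, was at 1.14 in vehicle and 3.83 in anti-PD-1 (1.75, 1.34 to 2.20). Its ratio was 2.38 with Mki67 at 0 and 0.52 with Mki67 above 0, and it was -0.59 in members of at least 10000 UMIs against 2.10 in the rest. Ccr7, the lymph node homing receptor, was at 0.153 and 0.787 (2.36, 1.36 to 3.60), on 10 vehicle UMIs in 6 cells, and after thinning 7.41% and 9.70% of members held it. Cd27 was at 0.30 and 0.767 (1.36, 0.48 to 2.40). Bach2, a repressor that holds back effector differentiation, was lower, at 0.380 and 0.0835 (-2.19, -3.06 to -1.24), on 17 vehicle UMIs. Il7r was at 1.82 and 3.03 (0.73, 0.38 to 1.10) and Tcf7 at 0.516 and 0.727 (0.49, -0.13 to 1.19).

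Transcription factors of other helper fates were mixed. Maf, which drives IL-4, IL-10 and IL-21 programmes (chromosome 8, 115682942 to 115707794), was at 7.34 in vehicle and 2.72 in anti-PD-1, a log2 ratio of -1.43 (-1.62 to -1.24), and was found in 68.5% and 39.7% of thinned members against 10.0% and 7.86% of CD8 cells. The ratio was -1.88 with Mki67 at 0 and -0.68 with Mki67 above 0. Bcl6, the factor of follicular helper cells, was at 0.550 and 0.111 (-2.31, -3.10 to -1.45). Prdm1, encoding Blimp-1, its antagonist, was lower as well, at 1.17 and 0.293 (-2.00, -2.48 to -1.49), and was found in 33.3% and 7.87% of thinned members. Rora was at 4.36 and 2.46 (-0.82, -1.04 to -0.60) and Tox at 1.74 and 0.953 (-0.87, -1.23 to -0.50), both short of 2-fold. Gata3, the main factor of Th2 cells, was at 1.37 and 1.11 (-0.30, -0.74 to 0.17) and Batf, an AP-1 factor, at 0.649 and 0.986 (0.60, 0.05 to 1.22).

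Few signature cytokines and receptors of these fates were counted. Of 10 Th2 genes 4 passed, 1 higher (Areg) and 1 lower (Maf). Areg, encoding the growth factor amphiregulin, had 1 vehicle UMI and 697 UMIs in 146 anti-PD-1 members, a log2 ratio of 7.30 (4.82 to 12.61), and it was found in 0% and 9.81% of thinned members and 0% and 3.76% of CD8 cells. A count of 0 in 54 thinned vehicle members allows a share of up to 5.56% of cells with an Areg UMI at this depth, which is not the share of cells that express it. Of 10 Th17 genes 3 passed with none past 2-fold, and of 12 follicular helper genes 5 passed with 0 higher and 1 lower. Their median was -0.87, and 0.61 over the 3 that passed in both libraries, where 0 were lower.

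In the list of cytokine receptors and their regulators, 10 genes passed, with 2 higher, 0 lower and a median of -0.33. The 2 higher were Socs3 and Socs2, feedback inhibitors of cytokine signalling. Without Socs3, which passed only through anti-PD-1, the 9 that passed in both libraries held 1 higher and a median of -0.38. Socs3, which damps signalling through STAT3, was at 0.0969 in vehicle (7 UMIs in 4 cells) and 0.616 in anti-PD-1 (2.67, 1.51 to 4.16), with ratios of 2.93 and 2.13 at Mki67 0 and above 0 and of 0.06 in members of at least 10000 UMIs. Socs2 was at 0.288 and 0.706 (1.29, 0.53 to 2.17). Among chemokine receptors and residency genes, 11 passed with 1 higher and 2 lower, beside 3.46% and 19.2% over all genes. Ccr2, a receptor for monocyte chemoattractants, was at 0.417 and 0.958 (1.2, 0.44 to 2.09). Itga4, the integrin alpha 4 chain, was lower, at 4.22 and 1.64 (-1.37, -1.60 to -1.13). Rgs1, the most abundant, was at 6.54 and 12.1 (0.88).

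The list of glycolysis and low-oxygen genes had the second highest median. Of 20 measured, 19 passed, with 6 higher and 1 lower, beside 3.46% and 19.2% over all genes, and a median of 0.83. Over the 17 that passed in both libraries, with 4 higher and 1 lower, the median was 0.80. Relative to the median gene 12 were higher and 0 lower. The median was 0.65 with Mki67 at 0 and 1.16 with Mki67 above 0, and 0.20 in CD8 cells.

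The enzymes of the lower pathway were well counted. Ldha, which turns pyruvate to lactate, was at 4.38 in vehicle and 9.03 in anti-PD-1 (1.04, 0.83 to 1.26), and was found in 66.7% and 87.5% of thinned members. Pgam1 was at 1.19 and 2.78 (1.23, 0.85 to 1.63). Aldoa, Tpi1, Pgk1, Pkm and Gpi1 had log2 ratios of 0.80, 0.90, 0.89, 0.83 and 0.79, each short of 2-fold. Gapdh, the most abundant, was at 15.3 and 22.2 (0.54, 0.42 to 0.66). Transporters rested on fewer molecules. Slc2a1, the glucose transporter GLUT1, was at 0.137 and 0.453 (1.73, 0.57 to 3.23), and Slc16a3, which exports lactate, at 0.164 and 0.407 (1.32, 0.40 to 2.41). Hk2 was at 0.0964 and 0.276 (1.52, 0.12 to 3.44), and Bnip3, a mitophagy receptor and known HIF target, had 2 vehicle UMIs (3.66, 1.73 to 6.86). Slc2a3, the GLUT3 transporter, was the lower one, at 0.874 and 0.416 (-1.07, -1.59 to -0.52), and Hif1a itself did not differ 2-fold (5.46 and 5.33).

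Interferon-stimulated genes were lower chiefly in members with Mki67 above 0 and in members of at least 10000 UMIs, groups that overlap. Of 30 measured, 29 passed, with 0 higher, 5 lower and a median of -0.36, near that of all genes, of which 19.2% were lower. Over the 27 that passed in both libraries 3 were lower and the median was -0.26. The median was -0.03 with Mki67 at 0 and -1.01 with Mki67 above 0. In the latter 15 of the 29 were 2-fold lower, beside 20.8% of all genes there. By depth the median was -1.40 at 10000 or more UMIs and -0.18 in the rest. Differences between these medians were not tested, and depth and Mki67, which went together, cannot be told apart. Ifi203 and Ifi206, of the PYHIN family of DNA-binding proteins, were at 7.12 and 3.39 (-1.07, -1.25 to -0.88) and at 1.62 and 0.510 (-1.67, -2.06 to -1.27). Oasl2 was at 0.577 and 0.147 (-1.98, -2.75 to -1.14) and Oas1a at 0.434 and 0.180 (-1.27, -1.95 to -0.52). Ifi27l2a, the most abundant, was at 28.8 and 25.8 (-0.16). All 18 genes of class I presentation passed, with 0 higher, 1 lower and a median of -0.06. The lower one was Nlrc5, the transactivator of class I genes, at 0.946 and 0.378 (-1.32, -1.80 to -0.82), while H2-K1 was at 44.5 and 40.3.

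Over all members together, cell cycle genes other than Mki67 stood near all genes as a list, but not in members with Mki67 at 0. All 22 passed, with 0 higher, 4 lower and a median of -0.46, beside 19.2% lower over all genes. Relative to the median gene 1 was higher and 2 were lower. Over the 20 that passed in both libraries 3 were lower, beside 11% of all genes that did so, and the median was -0.40. Cenpf, a kinetochore protein, was at 1.36 and 0.402 (-1.76, -2.12 to -1.39), and Pcna, the replication clamp, at 1.33 and 0.504 (-1.40, -1.76 to -1.03). Cenpe was at 0.860 and 0.387 (-1.15) and Plk1 at 0.201 and 0.0974 (-1.04). Stmn1 was at 2.42 and 2.59 (0.10). Within members with Mki67 above 0 the median was -0.08, and within those with Mki67 at 0 it was 1.02, where Cenpe was at 0.52. With Mki67 at 0, 11 of the 22 were 2-fold higher and 1 lower, beside 6.91% and 24.2% of all genes there. With Mki67 above 0, 0 were higher and 2 lower, beside 7.39% and 20.8%. By depth the median was 1.21 under 10000 UMIs and -0.17 in the rest.

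Replication-dependent histone genes, whose mRNAs mostly lack a poly(A) tail, were lower. Of 17 measured, 13 passed, with 0 higher and 7 lower, beside 3.46% and 19.2% over all genes. The median was -1.05, and it was -0.38 with Mki67 at 0 and -1.07 with Mki67 above 0. Over the 10 that passed in both libraries 4 were lower, beside 11% of all genes that did so, and the median was -0.86. Hist1h2ap was at 7.28 in vehicle and 1.21 in anti-PD-1 (-2.59, -2.75 to -2.44). In members with Mki67 at 0 its log2 ratio was 0.49. Hist1h2ai had 32 vehicle UMIs and 9 in anti-PD-1 (-5.09, -6.52 to -3.84). Histone copies of the Hist1 cluster are near-identical, so counts may be split among them in a way these values do not show. In CD8 cells the proliferation median was -1.54 and the histone median -2.87.

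**Figure D4:**
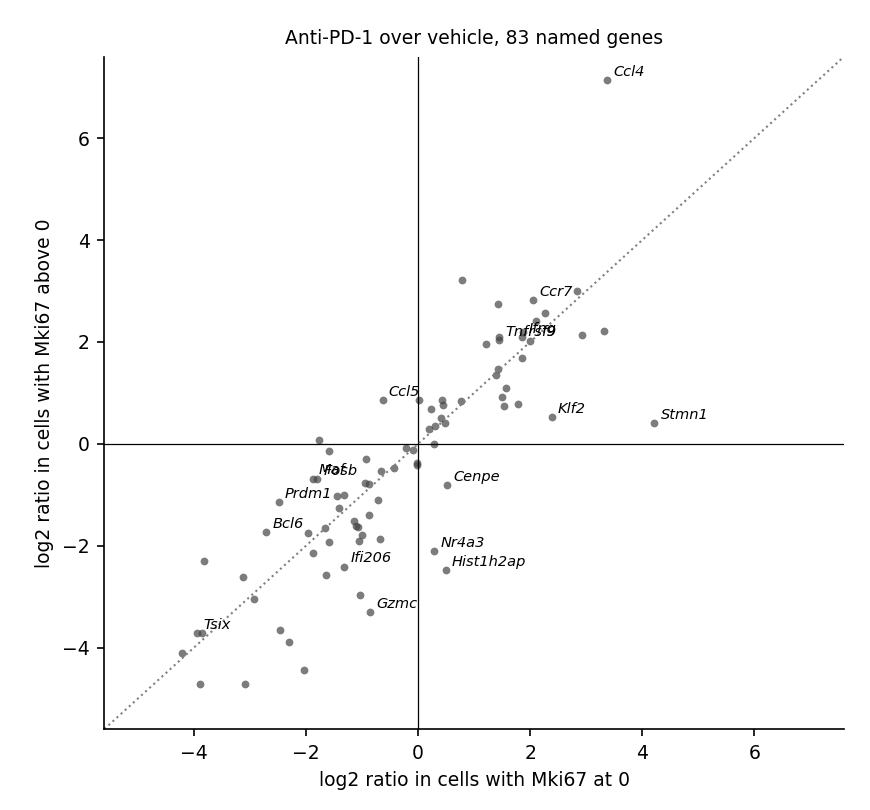
Log2 ratio (anti-PD-1 over vehicle) of named genes in CD4 conventional cells with Mki67 at 0 (x axis) and above 0 (y axis); each point is 1 gene with at least 5 vehicle UMIs, and the dotted line marks equal ratios. Ifng lies near the line (1.86 and 2.09), while Hist1h2ap (0.49 and -2.47) and Nr4a3 (0.29 and -2.11) change sign.

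Mitochondrial and ribosomal protein genes differed in opposite directions, and each by about the same amount in both Mki67 groups (-0.65 and -0.62 for the first at Mki67 0 and above 0, 0.49 and 0.36 for the second). All 13 mitochondrially encoded genes passed, with 0 higher, 3 lower and a median of -0.64 (-0.34 relative to the median gene), beside 19.2% lower over all genes. Their summed level was 383.0 UMIs per 10000 in vehicle and 240.2 in anti-PD-1. mt-Nd3, a subunit of complex I, was at 8.61 and 2.11 (-2.03, -2.20 to -1.85), mt-Atp8 at 1.69 and 0.519 (-1.70) and mt-Co1 at 88.4 and 48.7 (-0.86). Cytosolic ribosomal protein genes had a median of 0.46 over 80 that passed, with 0 higher and 1 lower, and 10 higher and 0 lower relative to the median gene. Their summed level was 2019 and 2621. Of 108 long noncoding genes that passed, 44 (40.7%) were 2-fold lower and 4 higher, against 18.8% lower among protein-coding genes. These shares were not computed over genes that passed in both libraries. Of all 1453 lower genes, 826 passed only through vehicle, so the filter may shape this gap. Genes of dissociation and heat shock had a median of 0.02, with Hspa1b, an inducible chaperone, lower at 6.93 and 2.86 (-1.28, -1.46 to -1.09) and Hsp90ab1 at 15.7 and 21.1 (0.43). In the S100, annexin and galectin list (median 0.32), S100a6 was higher, at 6.69 and 14.7 (1.14, 0.97 to 1.31), and Ahnak, a large scaffold protein, lower, at 8.11 and 2.66 (-1.61, -1.78 to -1.43).

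Outside the lists, among 5089 genes ranked, the 10 highest were of varied function. Hilpda, a hypoxia-induced lipid droplet protein, was at 0.427 and 2.34 (2.45, 1.72 to 3.30), with 2.26 and 2.56 at Mki67 0 and above 0. Ramp3, a coreceptor for calcitonin family peptides, was at 0.161 and 1.27 (2.98, 1.99 to 4.22). After thinning it was found in 5.56% and 21.3% of members and 0% and 1.99% of CD8 cells. Ifitm2, an interferon-induced membrane protein, was at 0.513 and 3.39 (2.72, 2.11 to 3.41), and Lgals7, encoding galectin-7, at 0.390 and 1.46 (1.90, 1.15 to 2.79), with 42.9% of its vehicle UMIs in 1 cell. Nfil3, a basic leucine zipper factor, was at 0.0884 and 0.415 on 6 vehicle UMIs (2.23, 0.94 to 3.95). Nudt19 (3.72), Gm9493 (2.52), Stk16 (2.04), Sertad1 (2.01) and Apopt1 (1.79) each had between 2 and 10 vehicle UMIs.

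The 10 lowest included Tsix, a long noncoding RNA, and Ttn. Tsix, the antisense partner of Xist (chromosome X, 103431517 to 103484957), was at 2.88 and 0.187 (-3.95, -4.34 to -3.56), and Ttn, encoding titin, at 2.32 and 0.161 (-3.86, -4.29 to -3.43). Reads of Tsix and Xist overlap, and the strand used in counting is not given in the sources used here. Ncf1, a subunit of the NADPH oxidase, was at 0.661 and 0.0744 (-3.15, -3.84 to -2.44) and the unconventional myosin gene Myo9a at 0.452 and 0.0593 (-2.93). The others were Gm26825 (-4.14), Gm17173 (-3.29), Gm26541 (-3.12), Gm26853 (-2.93), 1700019D03Rik (-2.89) and Zkscan7 (-2.75). Tsix and Ttn were lower in CD8 cells too, at -4.67 and -3.08.

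Beside the CD8 cells of the same 2 libraries (51 and 8777 cells), the CD4 members showed larger ratios for Ifng (1.98 against 0.77), Tnfrsf9 (1.68 against 0.29), Gzmb (3.41 against 1.0) and Ccl4 (4.69 against 1.69). Vehicle CD8 cells started from more Gzmb (7.05) and Ccl4 (3.64) than vehicle CD4 members. Maf was at -1.43 in CD4 members and 0.92 in CD8 cells, where it was scarce (0.213 and 0.405). Gzmc was at -1.83 and 1.53, and Ccl5 at -0.12 and 1.53. Mki67 was lower in both, at -1.45 and -2.79. Of 86 named genes with at least 5 vehicle UMIs in CD4 members, 11 had opposite signs in the 2 cell types. Several genes lower in CD4 members were lower in CD8 cells too. In vehicle and anti-PD-1 CD8 cells, Prdm1 was at 0.839 and 0.242, Bach2 at 0.223 and 0.0591 and Bcl6 at 0.0628 and 0.0267. Tox was at 3.36 and 1.56 there, and mt-Nd3 at 9.60 and 2.13. These differences between cell types were not tested.

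**Figure D5:**
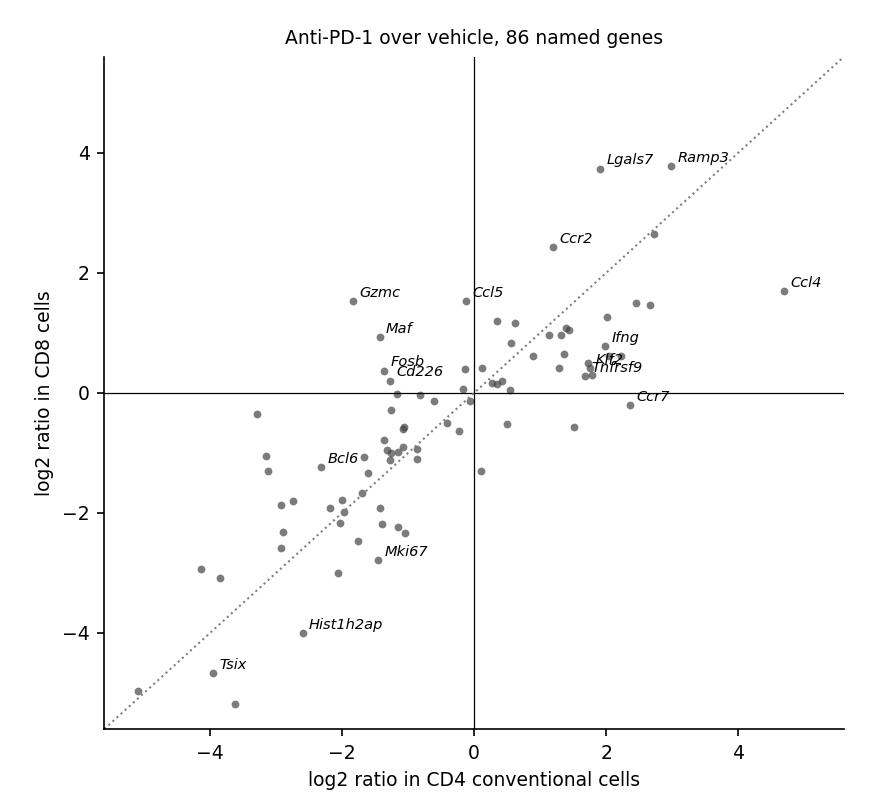
Log2 ratio (anti-PD-1 over vehicle) of named genes in CD4 conventional cells (x axis) and in CD8 cells (y axis) of the same 2 libraries; each point is 1 gene with at least 5 vehicle UMIs in CD4 conventional cells, and the dotted line marks equal ratios. Ccl4 and Ifng lie to the right of the line, and Gzmc lies at -1.83 and 1.53.

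By the same rule, 90 cells were found in the ATT-I library and 39 in the combination library. Ifng was at 1.39 and 2.69 there, Ccl4 at 2.85 and 0.843, Gzmb at 0.931 and 2.29, and Tnfrsf9 at 1.59 and 1.89, all under the anti-PD-1 levels. Maf was at 2.95 and 5.02, Klf2 at 5.64 and 1.05, and mt-Nd3 at 5.63 and 9.12.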

How the data were processed

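Single-cell RNA was counted in 4 droplet libraries, 1 per arm, each a pool of 5 tumours. Cell Ranger, Seurat and build mm10 appear in the submitters' processing notes. Versions, filters on cells and strand are not given in the sources used here. The values the authors deposited were read as the natural log of 1 plus UMIs per 10000, less a constant per library (0.247 in vehicle, 0.249 in anti-PD-1), with values under 0 set to 0. On this reading 100% of values came within 0.02 of a whole UMI in each library. The constant sets 1-UMI genes to 0 in 2 vehicle and 1 anti-PD-1 members. The 2 libraries held 3099824 and 108628721 UMIs, with medians of 16129 and 7148 per cell. 1 cell barcode was found in 2 libraries.

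Levels, ratios and counting intervals (from each gene's effective number of UMIs, exact binomial form) were computed in Python 3.11.15 with numpy 2.4.6, scipy 1.17.1 and pandas 2.3.3, and drawn with matplotlib 3.10.9. They were checked on simulated counts drawn with counting error only, which does not cover spread between cells or the rarest genes. A gene entered where 10% of members of either library held it. A library with no UMI of a gene took a floor of 3 UMIs. Thinning used a fixed seed. Doublets were not called or removed. Gene positions come from GENCODE M21 on GRCm38, the build called mm10.

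Genes were named by rule. From each of the 20 lists came up to 4 per direction past 2-fold with at least 20 UMIs, and the most abundant. Outside the lists came the 10 highest and 10 lowest among genes in 20% of members with at least 30 UMIs. Pdcd1, Mki67, Cd4, Cd8a, Cd8b1, Foxp3, Ifng, Il2, Cd40lg, Tcf7 and Tbx21 were always included. Other list members quoted, and ribosomal protein genes as a class, were chosen after their values were seen. A gene that the rule names is not reported here. The members of the comparison, the lists and the rule were chosen with earlier results of these data known. The alternatives tried changed the filter, the fold, the averaging, the Mki67 and depth groups, and the limits on members.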

Additional observations from a re-analysis of the deposited data

Results flagged for a closer look

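Gzmc, which encodes granzyme C, stood lower in anti-PD-1 than in vehicle among CD4 conventional cells, with a log2 ratio of -1.83, and higher among CD8 cells, with 1.53. What set it apart was the opposite sign in the 2 cell types under the same contrast. With 1 library per arm the difference between them was not tested. In CD4 conventional cells 35.6% of the vehicle UMIs came from 1 cell.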

How the results depend on the processing

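No paired analysis was possible because each arm has 1 library. Of 1929 gene values over the alternatives, 1626 stayed within their counting interval, 292 moved and 11 reversed, and of 420 list medians 395 stayed. A reversal was counted only for genes past 2-fold in the main values and for lists whose range left out 0. Other sign changes are not among the 11. Tnfrsf18 kept its sign in 14 of 20 settings, Ccl5 in 15, and the median of early T cell receptor genes in 9. Over 20 settings the median ran from 0.56 to 1.64 for the cytotoxic list and from 0.59 to 1.16 for glycolysis, Ifng from 1.68 to 2.43 and Maf from -1.88 to -0.68. Genes 2-fold higher and lower numbered 83 and 720 when found in 25% of members, 723 and 2561 with no filter, 684 and 2381 at 10000 or more UMIs, 584 and 829 relative to the median gene, and 826 and 2791 at 1.5-fold. The higher count was 498 with Mki67 at 0, 617 with Mki67 above 0, 631 with Foxp3, Il2ra and Ikzf2 at 0, and 549 without each gene's highest cell, when the median of all genes was -0.092. The histone median was -1.83 from summed UMIs, -0.38 with Mki67 at 0 and -0.21 under 10000 UMIs. The proliferation median was 1.02 with Mki67 at 0, 1.21 under 10000 UMIs, 0.10 with equal weight for both Mki67 groups and 0.60 with Foxp3, Il2ra and Ikzf2 at 0. Glycolysis was at 1.16 with Mki67 above 0 and 1.13 relative to the median gene, and mitochondrial genes were at -0.55 with Foxp3, Il2ra and Ikzf2 at 0 and -0.34 relative to it. Reversed genes were Nr4a3 (0.29), Cenpe (0.52) and Hist1h2ap (0.49) with Mki67 at 0, Irf4 with Mki67 above 0 (0.066), at 10000 or more UMIs (0.16) and thinned (0.36), Klf2 at 10000 or more UMIs (-0.59), Plk1 under 10000 UMIs (0.34) and with Foxp3, Il2ra and Ikzf2 at 0 (1.01), Tnfsf14 thinned (0.73), and Gzmc with Foxp3, Il2ra and Ikzf2 at 0 (0.67). The cause was not tested. Settings that required 2 Cd4 UMIs, no CD8 UMI and Cd3e, or removed members with NK, Ly49, gamma-delta or high myeloid RNA, were chosen after seeing the data. With 55 vehicle cells and a median of 24 vehicle UMIs per gene, counting error limits most single genes.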
